A study of Mus musculus with 2 samples.

Results

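Arg1-high tumor macrophages are the cells described here: macrophages with abundant RNA of Arg1, the gene of arginase 1. They were chosen by measured values. A cell barcode had to hold at least 500 UMIs (unique molecular identifiers, each marking 1 captured transcript), at least 200 detected genes and at most 10% mitochondrial UMIs. It had to carry at least 1 UMI of Csf1r or Adgre1, at least 2 UMIs of Lyz2 and Cd68 together, and no UMI of Flt3, Cd209a, Xcr1, Cd3d, Cd3e, Cd3g or Cd79a, genes of dendritic, T and B cells. Barcodes that met these conditions form the macrophage gate, and members of the Arg1-high population also carried at least 5 Arg1 UMIs per 10000. The rule found 391 members, 296 in the Control library and 95 in the DOPAC library, among 18539 kept cells and 2564 cells in the gate. The other 2173 gate cells, 1502 in Control and 671 in DOPAC, are called the rest of the gate and served as the comparison.

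The cells were CD45-positive, the surface mark of leukocytes, and were sorted from tumors that the melanoma cell line B16-F10 had formed in wild-type mice. The animals had been given vehicle, labelled Control, or DOPAC (3,4-dihydroxyphenylacetic acid, which arises when dopamine is degraded). The design gives 4 mice per group, yet each group is 1 library in which cells carry no mark of their mouse, so a library was treated as 1 sample of pooled animals. Age, sex, dose and duration of treatment are not given in the sources used here. The labels name tumor as the tissue, colon in the dissociation protocol and lymphocyte as the cell type; the tumor label and the design text were followed, and the cells described here are macrophages by their rule, not lymphocytes.

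Arginase 1 splits arginine into ornithine and urea. In tumors, macrophages with much arginase are known for drawing down the arginine that T cells need, and for living in poorly perfused, hypoxic tissue. Cells short of oxygen stabilise the transcription factor HIF-1, which binds the core ACGTG or GCGTG near its target genes and raises glucose transport, glycolysis and angiogenic factors. Interferon gamma from T and NK cells drives a different macrophage program, with guanylate-binding proteins, the chemokine Cxcl9 and MHC class II antigen presentation.

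The Control library held 9629 barcodes and 100938364 UMIs, and the DOPAC library 10777 barcodes and 47769958 UMIs. Members were correspondingly shallower in DOPAC, at a median of 4458 UMIs and 1762 genes against 12158.5 UMIs and 3149 genes in Control. Summed over members, expression rests on 4028642 UMIs in Control and 431736 in DOPAC. Values below are CPM, the UMIs of a gene per 1000000 UMIs of the summed cells, with 95% Poisson intervals in parentheses, and folds are ratios of CPM with exact conditional intervals. All intervals cover the error of counting alone. Since each treatment is 1 library, differences between treatments have no replicate check and carry no p-value. Mitochondrial UMIs made up a median of 2.79% of a member's UMIs in Control and 1.89% in DOPAC. A doublet caller marked 4 Control members (1.35%) and 2 DOPAC members (2.11%), and none of the 32 barcodes that the libraries shared was a member.

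Arg1 itself, at chr10:24915221-24927484 on the minus strand of GRCm38, is described without comparison because it chose the members. Its level per 10000 UMIs ran from 5.04 over a median of 20.8 to 218 in Control members, and from 5.18 over 17.1 to 130 in DOPAC members. The middle of the distribution, from the lower to the upper quartile, was 11.2 to 54.7 in Control and 10.4 to 32.7 in DOPAC. Most gate cells carried no Arg1 UMI at all, 63.5% in Control and 82.4% in DOPAC. Just inside the threshold, between 5 and 6 per 10000, lay 20 Control cells with a median of 7 Arg1 UMIs and 7 DOPAC cells with a median of 2. Just outside it, between 4 and 5, lay 17 Control cells with a median of 6 and 4 DOPAC cells with a median of 2. A single Arg1 UMI was enough for 4 Control members and 3 DOPAC members.

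**Figure D1:**
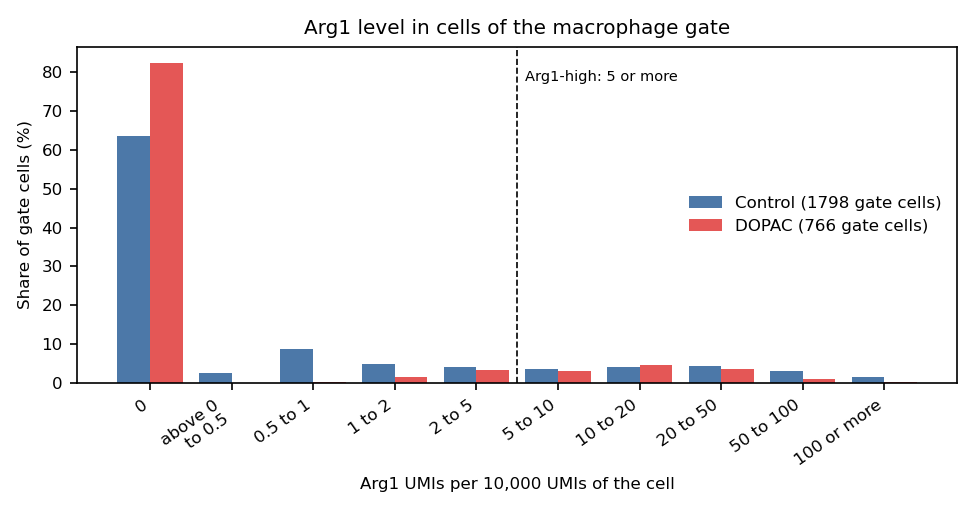
Share of macrophage gate cells (vertical axis, percent of the gate in each library) by Arg1 UMIs per 10000 UMIs of the cell (horizontal axis) for Control and DOPAC; the dashed line marks the threshold of 5 per 10000. Cells without an Arg1 UMI, 63.5% of the Control and 82.4% of the DOPAC gate, form the tallest bars, and members spread over a long range above the threshold. The libraries are not matched for depth here.

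Members made up 16.5% (14.8 to 18.3, Clopper-Pearson) of the macrophage gate in Control and 12.4% (10.2 to 14.9) in DOPAC, a difference of -4.06 percentage points (-6.85 to -1.05, Newcombe). Of all kept cells they were 3.51% (3.12 to 3.92) in Control and 0.941% (0.762 to 1.15) in DOPAC, a difference of -2.56 points (-3.01 to -2.14). The second difference includes a smaller gate, which held 21.3% of kept Control cells and 7.59% of kept DOPAC cells. Over the alternative settings the difference in the share of the gate ran from -2.93 to -8.22 points. It was -7.74 points with every cell thinned to 2000 UMIs, where 1 Arg1 UMI meets the threshold, so membership itself changed. It was -8.22 with cells holding RNA of other types left out. That setting dropped a cell for 1 UMI of such a gene, whatever its depth. It dropped 131 of 296 Control members (44.3%) and 21 of 95 DOPAC members (22.1%). With 1 library per group, the treatment and the library cannot be told apart. Members carried 56.8% of all Arg1 UMIs of kept Control cells and 36.1% of those of kept DOPAC cells. Since Arg1 chose the members, a large share was likely in advance, and it is given as a description. The rest of the gate held 717 of 26290 Arg1 UMIs in Control and 55 of 3031 in DOPAC. The remaining Arg1 UMIs lay in cells outside the gate.

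The exclusions removed a sizeable share of cells that met the positive criteria. They took out 49.58% of 3566 Control barcodes and 51.15% of 1568 DOPAC barcodes with the macrophage genes, whatever their Arg1. A single UMI excluded a barcode at any depth. Excluded barcodes with enough Arg1 had medians of 16640 UMIs in Control and 6743 in DOPAC, beside 12158.5 and 4458 in members. Of 454 Control barcodes with the macrophage genes and enough Arg1, 158 (34.8%) were excluded, 89 of them for a Cd3 UMI, and of 150 DOPAC barcodes 55 (36.7%) were excluded, 51 of them for a Cd3 UMI. A Cd3 UMI can come from a doublet or from free T-cell RNA, and which of these applied was not tested. Free Arg1 RNA was low by comparison: T cells, which should lack the gene, held 16.1 Arg1 CPM in Control and 11.2 in DOPAC, and 0.202% and 0.475% of them reached the threshold of 5 per 10000.

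The macrophage part of the label was set beside genes that the rule did not use. Since the rule required other macrophage genes, higher values than outside the gate were likely in advance. Fcgr1, a macrophage receptor for antibodies, stood at 372 CPM in Control members and 468 in DOPAC members, beside 74.5 and 52.8 CPM in cells outside the gate. Cd14, a receptor for bacterial lipopolysaccharide, stood at 1160 and 811 CPM beside 252 and 89.2 CPM. Csf1r and Adgre1, which the rule required, were at 271 and 287 CPM and at 137 and 162 CPM and are given as a description. The 5 markers besides Arg1 took no part in the rule, although they were named with results of these data in view. All of them were more than 2-fold higher in members than in the rest of the gate in both libraries.

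Spp1 encodes osteopontin, a secreted matrix and adhesion protein, and lies at chr5:104435118-104441050. It measured 1890 CPM in Control members against 293 in the rest of the gate, and 1269 CPM in DOPAC members against 241. The folds of members over the rest were 6.44 (6.23 to 6.67) and 5.28 (4.71 to 5.9). Cxcl3, a neutrophil-attracting chemokine at chr5:90786103-90789600, measured 1462 against 125 CPM in Control and 702 against 94.4 in DOPAC, folds of 11.7 (11.1 to 12.2) and 7.43 (6.3 to 8.77). Mmp13, a collagenase at chr9:7272514-7283331, measured 107 against 15.98 CPM and 294 against 59.4 CPM, folds of 6.70 and 4.95. It was the marker with a higher level in DOPAC than in Control members. Pdpn, the surface mucin podoplanin at chr4:143267431-143299564, measured 216 against 33.9 CPM and 190 against 52.1 CPM. Hmox1, heme oxygenase 1, which breaks down heme, lies at chr8:75093621-75100589 and measured 2133 against 590 CPM and 1846 against 731 CPM. Hmox1 was thus abundant throughout the gate and had the smallest fold of the markers, 3.62 in Control and 2.53 in DOPAC.

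To compare single cells at one depth, each was thinned to 2000 UMIs, which left out 7 members per library that were shallower. None of the 5 other markers was found in 7.96% of the 289 Control members and 5.68% of the 88 DOPAC members that remained, against 48.8% and 36.0% of the rest of the gate. Spp1 was found in 54.0% of Control and 46.6% of DOPAC members, against 19.4% and 15.0% of the rest of the gate. T cells, with a median of 6834 UMIs in Control and 4288.5 in DOPAC before thinning, gave Spp1 in 4.69% and 4.75% at the same depth. Hmox1 was found in 67.5% and 83.0% of members, Cxcl3 in 54.0% and 31.8%. The T-cell shares were 5.51% and 6.02% for Hmox1 and 1.36% and 1.16% for Cxcl3.

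Across all genes, 8476 held enough UMIs for the comparison of members with the rest of the gate, at least 20 in the 2 sums of each library. Of these, 98 (1.16%) were at least 2-fold higher in members in both libraries and 100 (1.18%) at least 2-fold lower, with 1 count added to each sum. When the sums were scaled to a median ratio of 0, the split was 128 higher and 78 lower. Counts for gene groups below are to be read against these shares. The lists behind the groups are named by the textbook role of their genes.

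Genes induced by low oxygen were higher in members as a group: 10 of 20 measured were at least 2-fold higher in both libraries, none was lower, and 19 lay above a ratio of 1 in both. Their median log2 ratio of members over the rest was 1.06 in Control and 1.14 in DOPAC, beside -0.13 and 0.06 over all genes. Egln3, a prolyl hydroxylase that marks HIF for destruction, lies at chr12:54178981-54203860. It measured 118 against 17.5 CPM in Control and 99.6 against 20.4 CPM in DOPAC, folds of 6.76 (5.87 to 7.79) and 4.89 (3.23 to 7.35). Its relative Egln1 measured 112 against 45.4 CPM and 104 against 31.7 CPM. Both libraries therefore held these oxygen-sensing enzymes at similar levels in members and at lower levels in the rest of the gate.

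Hilpda, a lipid-droplet protein that blocks fat breakdown, lies at chr6:29272488-29275446 and measured 732 against 230 CPM in Control and 454 against 127 CPM in DOPAC. Ero1l, an oxidase of disulfide formation in the endoplasmic reticulum, measured 365 against 97.6 CPM and 438 against 109 CPM, folds of 3.74 and 4.02. Bnip3, a mediator of mitophagy, measured 247 against 67.2 CPM and 276 against 81.8 CPM. The secreted angiogenic factor of the group was Vegfa, at 187 against 64.2 CPM and 241 against 76.1 CPM, folds of 2.91 and 3.17. Slc2a1, the glucose transporter GLUT1, was 2.75-fold and 2.50-fold higher, and Ndrg1, a stress-response gene, 2.31-fold and 2.32-fold. Ankrd37 and Ddit4, the latter an inhibitor of mTORC1, complete the 10 genes, with folds of 3.79 and 3.35 and of 4.95 and 4.63. Among the 10 others, Mxi1, Higd1a, Hif1a, Pfkfb3 and Hk2 did not reach 2-fold in both libraries, and Pfkfb3 was the gene that went below 1 in Control, at 0.809. Hif1a, which encodes the oxygen-regulated subunit of HIF-1, was 1.58-fold and 1.31-fold.

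The HIF core is shown in the promoters of these genes because it is the feature they are known to share. In RefSeq (GRCm38.p6), 9 of the 10 had an entry, some with several start sites; Ndrg1 is named only. ACGTG or GCGTG was searched on both strands in the 250 bases before each RefSeq start; a CACGTG holds ACGTG on both strands and was taken as 1 gene with a match. All 9 had a match at some start. For 7 of them the start lay within 250 bases of the start of the GENCODE gene, and these are printed; for Vegfa and Ankrd37 the match belonged to a start farther inside the GENCODE gene. Each line gives up to 41 bases on the gene's strand, 5′ to 3′, around 1 match, with the match in capitals; CACGT is ACGTG read on the other strand.
Egln3, chr12:54204081-54204121, minus strand: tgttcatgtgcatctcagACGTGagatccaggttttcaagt
Egln1, chr8:124949300-124949340, minus strand: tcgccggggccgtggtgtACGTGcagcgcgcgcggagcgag
Hilpda, chr6:29272600-29272625, plus strand: ctcgtgcaggttcggtacGCGTGcgc
Ero1l, named Ero1a in RefSeq, chr14:45318613-45318653, minus strand: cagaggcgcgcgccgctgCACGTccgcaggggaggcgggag
Bnip3, chr7:138909519-138909559, minus strand: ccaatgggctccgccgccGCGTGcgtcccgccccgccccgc
Slc2a1, chr4:119108691-119108731, plus strand: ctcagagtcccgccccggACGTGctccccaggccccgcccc
Ddit4, chr10:59951863-59951903, minus strand: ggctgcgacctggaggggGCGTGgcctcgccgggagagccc
The printed matches lay between 3 bases (Hilpda) and 224 bases (Egln3) before the RefSeq start. Counted over all starts of a gene, the motif was also found for 13 of 13 hypoxia genes with an entry that were not 2-fold higher, so it does not separate the groups. It is common: 63.4% of 6803 measured genes with an entry and 41.5% of all 27025 genes in the table held it in the same window of at least 1 start.

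**Figure D2:**
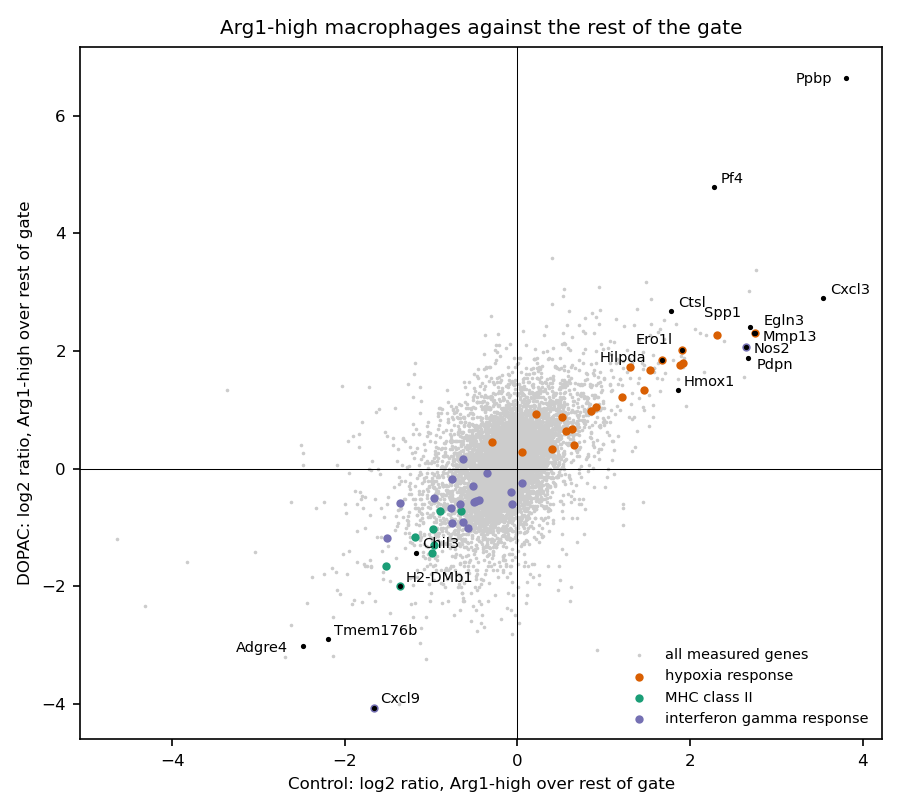
Log2 ratio of members over the rest of the macrophage gate in Control (horizontal axis) and in DOPAC (vertical axis) for measured genes, each point 1 gene, with named genes marked. Spp1, Cxcl3, Egln3 and Pf4 lie at high ratios in both libraries, and Cxcl9 and MHC class II genes lie below 0 in both.

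Glycolysis genes were higher in members in nearly every case, mostly by less than 2-fold. Of 15 measured, 14 were above a ratio of 1 in both libraries, and 3 (Gpi1, Pgk1 and Slc2a1) passed 2-fold in both. The median log2 ratio was 0.81 in Control and 0.97 in DOPAC. Pgk1, phosphoglycerate kinase, measured 1020 against 447 CPM in Control and 896 against 312 CPM in DOPAC. Gapdh, glyceraldehyde phosphate dehydrogenase, measured 5074 against 2715 CPM and 3046 against 1548 CPM, folds of 1.87 and 1.97. Pfkp, a phosphofructokinase subunit, was the member below 1, at 0.943 and 0.945.

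The level of Arg1 was followed by the same groups among the members themselves. Gate cells were divided by Arg1 per 10000 UMIs into those with none, those under 5, and members at 5 to 10, 10 to 50 and at least 50. These levels held 1141, 361, 64, 151 and 81 Control cells and 631, 40, 23, 62 and 10 DOPAC cells. Summed CPM of the hypoxia genes went from 1666 over 2002, 2933 and 4080 to 4711 in Control, and from 1750 over 2005, 3587 and 3920 to 5271 in DOPAC. Glycolysis genes went from 6397 to 14846 in Control and from 4248 to 11909 in DOPAC, higher at each step. Levels with intermediate Arg1 thus held intermediate sums of both groups. These are sums over cells, so they cannot tell intermediate single cells from a changing mix of high and low ones. Single genes did not all follow. From the lowest to the highest level of DOPAC members, Hilpda measured 439, 476 and 347 CPM, while Ero1l measured 296, 424 and 824 CPM. Spp1, outside both groups, measured 1298, 1268 and 1215 CPM there. A sum over genes rests on cells that share a library and a depth range, and no test was made.

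MHC class II genes ran the other way. Their summed CPM went from 11872 in Control gate cells without Arg1 to 4605 in those at 50 or more, lower at each step, and from 13464 to 4707 in DOPAC, where the step from 5 to 10 (6356) to 10 to 50 (6717) was upward. The sum of classical monocyte genes followed no single order, and was highest in the highest Arg1 level, at 7024 CPM in Control and 8460 in DOPAC. Its genes went apart. From cells without Arg1 to that level, F13a1 went from 505 to 1738 CPM in Control and from 316 to 1605 in DOPAC. Ly6c2 went from 280 to 106 CPM and from 819 to 521. Chil3 and Plac8 were lower in that level in Control and higher in DOPAC, where that level held 10 cells. Fn1, which encodes fibronectin, went from 348 CPM without Arg1 to 1586 in that level in Control, and from 175 to 304 CPM in DOPAC.

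**Figure D3:**
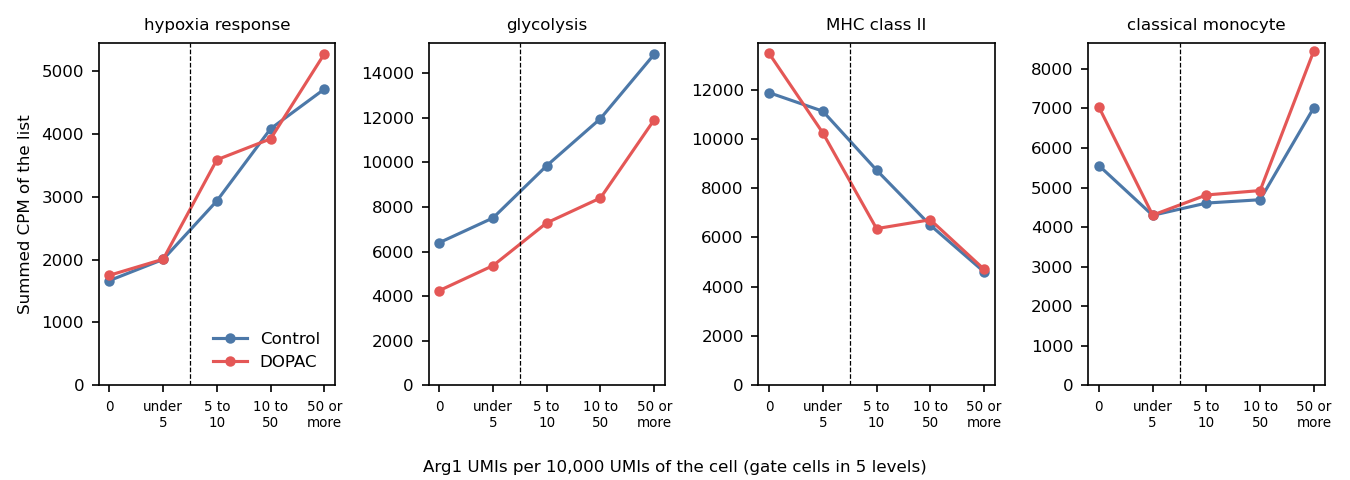
Summed CPM (vertical axes) of hypoxia, glycolysis, MHC class II and classical monocyte genes, 1 panel each, over 5 levels of Arg1 per 10000 UMIs (horizontal axis) in Control and DOPAC gate cells; the dashed line marks the threshold for members. Hypoxia genes go from 1666 to 4711 in Control and from 1750 to 5271 in DOPAC, and MHC class II genes from 11872 to 4605 and from 13464 to 4707.

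Against the rest of the gate, all 8 measured MHC class II genes were lower in members in both libraries, and 3 passed 2-fold in both, with median log2 ratios of -0.98 in Control and -1.23 in DOPAC. Those 3 were H2-DMb1, H2-DMa and Ciita. H2-DMb1 encodes a chain of the chaperone that loads peptides onto MHC class II and lies at chr17:34153072-34160230. It measured 126 CPM in Control members against 325 in the rest, and 55.6 against 231 CPM in DOPAC. Ciita, the master regulator of the class II genes, measured 11.2 against 32.6 CPM and 9.26 against 36.0 CPM. The abundant class II chains differed by less: H2-Aa measured 1061 against 2080 CPM in Control and 1093 against 2690 CPM in DOPAC, and Cd74, the invariant chain, 3301 against 5183 and 2990 against 4968 CPM.

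Among chemokines, 6 of 18 measured were at least 2-fold higher in members in both libraries and 1, Cxcl9, was lower. Several of them lie side by side on chromosome 5, in the cluster that holds Cxcl5 (chr5:90759360-90761624), Ppbp (90768518-90770063), Pf4 (90772435-90773383), Cxcl3, Cxcl1 (90891241-90893115) and Cxcl2 (90903871-90905938), all on the plus strand. Pf4, platelet factor 4, measured 3140 CPM (3086 to 3196) in Control members against 648 in the rest of the gate, and 1992 CPM (1861 to 2130) in DOPAC members against 71.7. The folds were 4.85 (4.73 to 4.97) and 27.8 (23.9 to 32.4). The larger fold in DOPAC came with a rest of the gate 9.03-fold lower in DOPAC than in Control, whereas members were 1.58-fold lower. At 2000 UMIs per cell, Pf4 was found in 63.0% of Control and 39.8% of DOPAC members, in 24.6% and 5.25% of the rest, and in 7.69% and 1.13% of T cells.

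Ppbp, pro-platelet basic protein, measured 368 CPM in Control members against 26.4 in the rest. In DOPAC it measured 97.3 CPM, but 71.4% of those UMIs lay in 1 cell, and the rest of the gate held 2 UMIs. Platelets also carry Pf4 and Ppbp RNA. Of 10 platelet genes, 5 were at 0 in Control members and 8 in DOPAC members, among them Gp9 and Itga2b in both. Besides Pf4 and Ppbp, Control members held 3 UMIs of Clec1b and 1 each of Treml1 and Gp6. The part of platelet RNA in the Pf4 and Ppbp values was not tested further. Cxcl1, a neutrophil attractant, measured 992 against 365 CPM and 834 against 240 CPM. Cxcl2, its neighbour and the most abundant of the cluster, measured 16662 against 8318 CPM and 20158 against 11390 CPM, and with folds of 2.003 and 1.77 was not 2-fold in both. Cxcl5 was seen in Control alone, at 21.6 CPM in members (87 UMIs) and 0.307 in the rest, and had no UMI in the DOPAC gate. The CC chemokines Ccl6 and Ccl9 were also higher, at 2747 against 1182 CPM and 1186 against 562 CPM in Control and 2182 against 812 and 915 against 369 CPM in DOPAC.

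Cxcl9, which draws T cells and is induced by interferon gamma, lies farther along the same chromosome at chr5:92321347-92328079 on the minus strand. It measured 89.1 CPM (80.1 to 98.8) in Control members against 282 in the rest of the gate, and 76.4 CPM (52.6 to 107) in DOPAC members against 1320 in the rest. The rest exceeded members 3.17-fold (2.85 to 3.54) in Control and 17.3-fold (12.3 to 25.1) in DOPAC. In Control members, 31.2% of the Cxcl9 UMIs lay in 1 cell. Between treatments, Cxcl9 was 4.67-fold higher in DOPAC in the rest of the gate but 0.858-fold (0.581 to 1.23) in members. The value in members was unstable: it was above 1 once cells were thinned to 2000 UMIs (a log2 ratio of 1.36) or once cells with RNA of other types were left out (1.84). Both settings also changed which cells were members. At 2000 UMIs, Cxcl9 was found in 3.46% of Control and 13.6% of DOPAC members, beside 1.97% and 7.29% of T cells as the background.

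**Figure D4:**
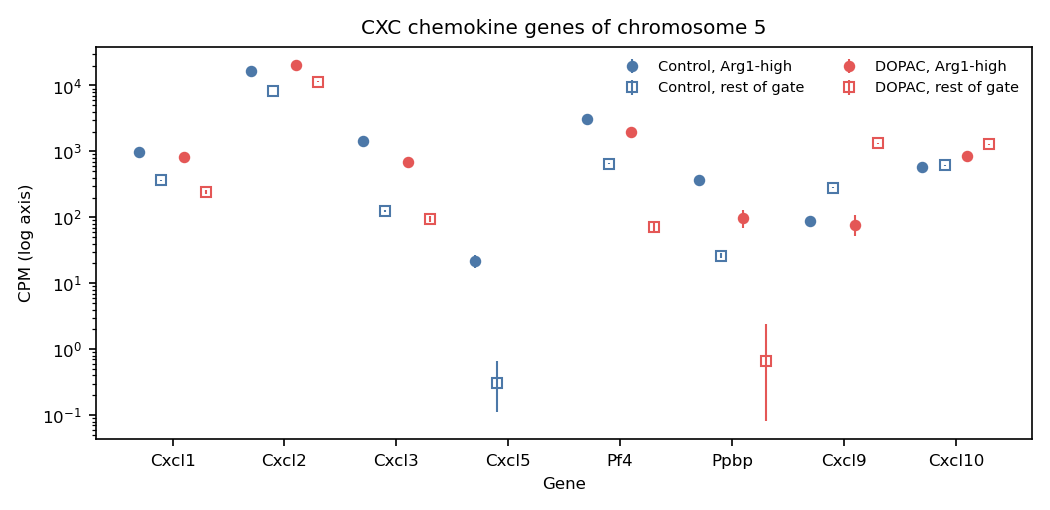
CPM on a log axis (vertical) of CXC chemokine genes of chromosome 5 (horizontal) in members and the rest of the gate of both libraries; error bars are 95% Poisson counting intervals, and values of 0, Cxcl5 in DOPAC, are not drawn. Pf4, Ppbp, Cxcl3 and Cxcl1 are higher in members than in the rest of the gate in both libraries, and Cxcl9 is lower in members.

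Genes that act on the matrix were higher in members for 5 of 15 measured: Mmp12, Mmp13, Thbs1, Adam8 and Sdc1. Mmp12, the macrophage elastase that neighbours Mmp13 on chromosome 9 (chr9:7344381-7369499), measured 218 against 72.8 CPM in Control and 146 against 44.7 CPM in DOPAC. Thbs1, thrombospondin 1, was the most abundant, at 2066 against 776 CPM and 1795 against 780 CPM. Adam8, a membrane protease, was 2.40-fold and 3.10-fold higher, and the proteoglycan gene Sdc1 4.46-fold and 2.92-fold. Ecm1, an extracellular matrix protein, was outside the list and 4.31-fold and 4.90-fold higher.

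Of 18 genes known from lipid-laden macrophages, 16 lay above a ratio of 1 in both libraries and 4 passed 2-fold: Ctsl, Abca1, Fabp4 and Spp1. Ctsl, the lysosomal protease cathepsin L at chr13:64359337-64370890, measured 1047 against 304 CPM in Control and 1105 against 173 CPM in DOPAC. Abca1, which exports cholesterol, measured 241 against 102 CPM and 340 against 63.4 CPM. Fabp5, a fatty acid carrier, was 1.93-fold and 5.50-fold. The scavenger receptor gene Cd36 was 1.45-fold in Control and 2.28-fold in DOPAC, and Lpl, lipoprotein lipase, was below 1 in both, at 0.757 and 0.884. Trem2, a lipid receptor of this state, measured 218 against 155 CPM in Control and 83.4 against 31.0 CPM in DOPAC.

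Other groups separated members less. Among arginine and polyamine genes other than Arg1, Nos2, the inducible nitric oxide synthase that competes for arginine, measured 31.8 against 5.07 CPM in Control and 111 against 26.7 CPM in DOPAC. Ass1, which rebuilds arginine from citrulline, was lower, at 21.8 against 46.7 CPM and 23.2 against 82.8 CPM. Nos2 was found at 2000 UMIs in 7.61% of Control and 18.2% of DOPAC members and in 0.0680% and 0.449% of T cells. The arginine importer Slc7a2 was 2.24-fold in Control and 1.40-fold in DOPAC. Of NRF2 targets, which answer oxidative stress, 1 of 19 passed 2-fold, and it was the marker Hmox1. Of 13 heat shock and early response genes, 1 did: Hspa1b, at 385 against 141 CPM and 672 against 325 CPM.

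Cytokine genes at least 2-fold higher were 3 of 15: Il1a, an alarmin, at 510 against 166 CPM and 310 against 107 CPM, Lif, and Csf3. Areg, the growth factor amphiregulin, was 3.87-fold higher in Control and 2.06-fold in DOPAC, and Serpinb2, a plasminogen activator inhibitor, 4.17-fold and 5.15-fold. Serpinb2 in DOPAC turned to a log2 ratio of -0.32 at 2000 UMIs per cell, where 1 Arg1 UMI made a gate cell a member. Nt5e, the enzyme CD73 that makes adenosine, was the 1 gene of 14 checkpoint and suppressive genes to pass, at 17.9 against 3.94 CPM and 18.5 against 4.00 CPM. None of 10 proliferation genes was higher, and 7 were below 1 in both libraries.

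Genes lower in members included several of monocytes. Chil3, a chitinase-like protein at chr3:106147554-106167564, measured 182 against 413 CPM in Control and 111 against 305 CPM in DOPAC. Adgre4, at chr17:55749984-55853662, measured 2.98 against 18.03 CPM and 2.32 against 37.0 CPM, the last member value being 1 UMI. F13a1, the coagulation factor XIII subunit and the 1 classical monocyte gene of 11 that passed 2-fold upward, measured 1237 against 531 CPM and 1135 against 321 CPM. Others by the naming rule were Arhgap15, a GTPase-activating protein, at 258 against 613 CPM and 308 against 1134 CPM, and Tmem176b, at 17.6 against 81.9 CPM and 4.63 against 51.4 CPM. The DOPAC member value of Tmem176b also lies near the floor of 1 UMI. Slamf9 and Calhm6 were lower as well, at 17.9 against 50.3 and 14.9 against 56.0 CPM in Control.

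Among the remaining lists, 1 gene of each passed 2-fold upward for C1q and resident macrophage genes (Pf4, 13 measured), iron and heme handling (Hmox1, 10 measured) and metallothioneins (Mt2, 4 measured), and 2 of 8 growth and angiogenic factors did (Vegfa and Areg). Of 10 genes of IL-4 type activation none passed upward and Chil3 was lower. Of 20 interferon gamma response genes, 17 were below a ratio of 1 in both libraries, with median log2 ratios of -0.60 in Control and -0.56 in DOPAC. Cxcl9 and Gbp2 were at least 2-fold lower in both and Nos2 at least 2-fold higher. Of 8 further macrophage genes none passed in either direction. C1qa, a complement component, was 0.855-fold and 1.11-fold in members against the rest.

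Members were set beside the most similar gate cells. Cxcl9-positive macrophages, 366 Control and 326 DOPAC cells of the rest with at least 1 Cxcl9 UMI, held 194 and 161 Spp1 CPM, 61.8 and 57.5 Cxcl3 CPM and 191 and 95.6 Hilpda CPM. C1q-high macrophages, 278 Control and 70 DOPAC cells with neither Arg1 nor Cxcl9 and at least 10 C1q UMIs per 10000, held 358 and 195 Spp1 CPM, 70.3 and 62.9 Cxcl3 CPM and 197 and 126 Hilpda CPM. Both populations were several-fold below members for all of these genes in both libraries. For C1qb, members (1418 and 785 CPM) were close to Cxcl9-positive cells (1331 and 705 CPM) and below C1q-high cells (2838 and 1836 CPM), which were chosen for it. Pf4 separated the populations in both libraries too, at 516 and 52.5 CPM in Cxcl9-positive and 1019 and 132 CPM in C1q-high cells. Genes of lipid-laden macrophages did so unevenly. Trem2 measured 292 and 66.0 CPM in C1q-high cells beside 218 and 83.4 CPM in members. Apoe measured 2484 and 689 CPM beside 2068 and 688 CPM in members. Both genes were thus higher in C1q-high cells than in members in Control. Ctsl and Fabp5 were higher in members than in C1q-high cells in both libraries.

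Between treatments, 9009 genes held at least 20 UMIs in the 2 member sums together. Of these, 2044 (22.7%) were at least 1.5-fold higher in DOPAC members and 1460 (16.2%) at least 1.5-fold lower, and 911 (10.1%) and 685 (7.6%) also had a counting interval that stayed on that side of 1. With the sums scaled to a median ratio of 0, the split was 1706 higher and 1760 lower. With 0.5 counts added to each sum instead of 1, it was 1865 higher and 1778 lower. The median gene had a log2 ratio of 0.11 in members and -0.10 in the rest of the gate. The counts compare 2 libraries, and how many genes respond to the treatment cannot be read from them.

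Most interferon-induced genes were higher in DOPAC members. Of 20 measured interferon gamma response genes, 15 were at least 1.5-fold higher, all 15 with an interval above 1, and none was lower, with a median log2 ratio of 1.25. All 15 type I interferon response genes were at least 1.5-fold higher, 14 with an interval above 1, with a median of 1.22. The same genes were also higher outside the members: the medians were 1.40 and 0.95 in the rest of the gate and 0.79 and 0.22 in cells outside it. Over the alternatives run, the member medians stayed between 1.07 and 1.43 for the interferon gamma genes and between 1.09 and 1.38 for the type I genes.

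Gbp4, a guanylate-binding protein of cell-autonomous defence at chr5:105115767-105139586, measured 21.1 CPM in Control members and 174 CPM in DOPAC members, 8.23-fold (5.95 to 11.4) higher. Iigp1, an immunity-related GTPase, measured 5.46 and 71.8 CPM, 13.1-fold (7.37 to 23.8). Irgm1, another GTPase of the family, measured 19.6 and 102 CPM, and Fgl2, a secreted fibrinogen-like protein with known suppressive activity on T cells, 49.9 and 259 CPM, each 5.20-fold. Gbp2 and Gbp5 were 4.24-fold and 3.72-fold higher. Cd274, which encodes the checkpoint ligand PD-L1, measured 350 and 537 CPM, 1.53-fold beside 1.91-fold in the rest. Nos2 was 3.50-fold (2.46 to 4.91) higher in members beside 5.27-fold in the rest.

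Ifit1, which binds foreign RNA and lies at chr19:34640871-34650009, measured 57.6 CPM in Control and 373 CPM in DOPAC members, 6.48-fold (5.26 to 7.95), beside 2.22-fold in the rest of the gate. At 2000 UMIs it was found in 6.23% of Control and 28.4% of DOPAC members, and in 3.13% and 6.35% of T cells. Cmpk2, a mitochondrial nucleotide kinase, measured 21.6 and 132 CPM, and its antiviral neighbour Rsad2 386 and 1170 CPM, 3.03-fold. Ifi44 rested on 3 UMIs in Control and 17 in DOPAC. Ly6a and Slfn4, both interferon-inducible, were 4.38-fold and 4.02-fold higher, from 184 to 806 CPM and from 119 to 479 CPM. Cxcl10, the other T-cell attractant, was 1.44-fold in members and 2.08-fold in the rest.

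RNA of T and NK cells was also higher in DOPAC members, while B-cell and erythroid RNA was lower. The summed level of 10 T-cell genes in members was 53.4 CPM in Control and 169 CPM in DOPAC, beside 838 and 2156 CPM in cells outside the gate, with 0 and 2 of the genes at 0. That of 10 NK-cell genes was 122 and 287 CPM, beside 1267 and 3282 CPM outside the gate. For example, the T-cell receptor gene Trbc2 measured 10.2 and 51.0 CPM and the cytotoxic granule gene Nkg7 19.9 and 74.1 CPM in members. Dendritic, neutrophil and B-cell genes summed to 387, 148 and 25.3 CPM in Control members and 473, 176 and 13.9 CPM in DOPAC members. Erythroid genes summed to 1232 CPM in Control, of whose Hbb-bs UMIs 96.4% lay in 1 cell, and to 4.63 CPM in DOPAC. Melanoma genes summed to 460 and 570 CPM, nearly all from Mitf, which macrophages also express, stromal genes to 20.4 and 30.1 CPM, and basophil and mast cell genes to 50.6 and 67.2 CPM. The part of this RNA in the interferon genes' difference was not tested.

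**Figure D5:**
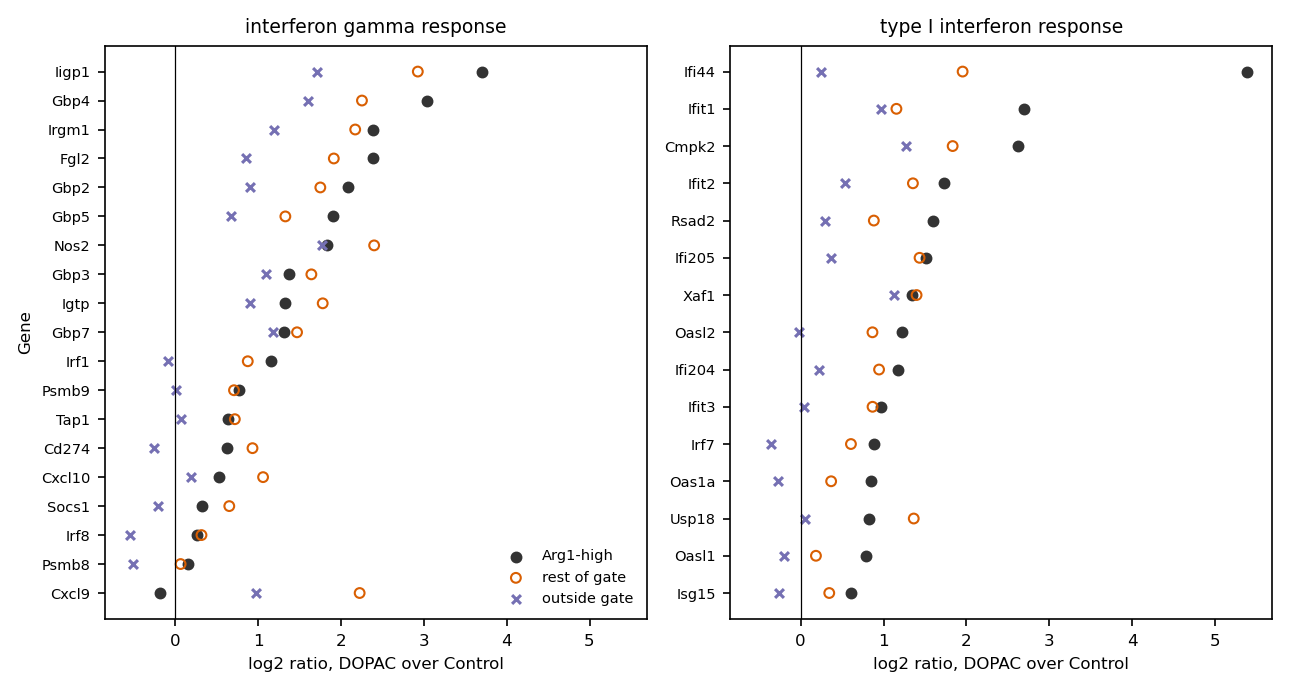
Log2 ratio of DOPAC over Control (horizontal axis) for the interferon gamma and type I interferon response genes shown (rows), in members, the rest of the macrophage gate and cells outside the gate. All 15 type I genes and all but 5 of the interferon gamma genes shown lie at or beyond 1.5-fold in members, and most points lie above 0 in the rest of the gate as well.

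Inflammatory cytokines were divided. Il6, a pyrogenic cytokine at chr5:30013114-30019981, measured 74.5 CPM in Control and 246 CPM in DOPAC members, 3.30-fold (2.62 to 4.13) higher, beside 1.52-fold in the rest of the gate. Il1rn, the interleukin 1 receptor antagonist, measured 455 and 970 CPM, and Ptgs2, the cyclooxygenase of prostaglandin synthesis, 1127 and 1932 CPM. In the other direction, Il1b, a central inflammatory cytokine, measured 5039 and 2643 CPM, 1.91-fold lower, and Il1a 510 and 310 CPM. The suppressive cytokine Il10 measured 256 and 144 CPM, and Il23a, Csf1 and Csf3 were also at least 1.5-fold lower. Of 15 measured, 3 were thus higher and 6 lower in DOPAC members, to be read against the 22.7% higher and 16.2% lower of all genes.

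The hypoxia group had no common direction between treatments, with 4 of 23 measured genes at least 1.5-fold higher and 4 lower and a median log2 ratio of 0.22. Glycolysis genes had 1 higher (Hk3) and 4 lower (Gpi1, Gapdh, Eno1 and Pkm) of 15, with a median of -0.27. MHC class II had 1 of 7 lower, H2-DMb1, and a median of 0.05. These shares can be read against the 22.7% of all measured genes that were higher and the 16.2% that were lower. Of 19 chemokine genes, Ccl5 and Ccl8 were higher in DOPAC members, and Cxcl3, Ccl24, Ppbp and Pf4 were lower.

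Of 15 matrix genes, 2 were higher and 4 lower in DOPAC members, and of 18 lipid genes 3 were higher and 4 lower, to be read against the 22.7% higher and 16.2% lower of all genes. Timp1, an inhibitor of matrix metalloproteinases, measured 77.7 CPM in Control members and 13.9 CPM (6 UMIs) in DOPAC members, 5.59-fold (2.54 to 15.3) lower. Fn1 measured 936 and 278 CPM, 3.37-fold (2.81 to 4.07) lower beside 1.99-fold in the rest of the gate, and Tgfbi, a matrix adhesion protein, 775 and 336 CPM. Mmp13 was 2.75-fold (2.24 to 3.36) higher in DOPAC members beside 3.72-fold in the rest. Apoe, the lipid carrier, measured 2068 and 688 CPM, 3.01-fold lower beside 4.17-fold in the rest, and Trem2 was 2.61-fold lower beside 4.99-fold. Cd36 was 2.50-fold higher, from 280 to 702 CPM.

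Areg measured 386 CPM in Control members and 139 CPM in DOPAC members, 2.78-fold (2.14 to 3.65) lower, beside 1.48-fold in the rest of the gate. Inhba, an activin subunit, and Edn1, endothelin 1, were higher, from 213 to 419 CPM and from 23.3 to 88.0 CPM. Ly6c2, a surface protein of classical monocytes and some T cells, measured 149 and 579 CPM, 3.88-fold higher beside 2.98-fold in the rest, and Plac8 889 and 1742 CPM. The share of members with a Ly6c2 UMI at 2000 UMIs was 19.4% in Control and 48.9% in DOPAC, beside 34.2% and 46.7% of T cells. Lyz2, the lysozyme gene used in the rule, measured 4508 and 1994 CPM and is given as a description only.

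The remaining genes named by rank were less of a kind. Park7, an oxidative stress sensor, was 5.78-fold (3.21 to 11.6) lower in DOPAC members, from 147 to 25.5 CPM. Lower too were Cuta (4.596-fold), Ebna1bp2 (7.36-fold, on 3 UMIs in DOPAC), the GTPase gene Rhou (6.43-fold), Maml3, a Notch coactivator (3.35-fold), Trf, the iron carrier transferrin (3.86-fold), and the translation factor gene Eef1g (2.92-fold). Ccdc162 was 5.71-fold higher beside 6.95-fold in the rest of the gate, and Homer1, a synaptic scaffold gene, 4.57-fold, with 25.8% of its DOPAC UMIs in 1 cell. Ccl8, a monocyte attractant, was 5.02-fold higher, while 50.2% of its Control UMIs lay in 1 cell. Frem3 met the rule with 114 UMIs that all lay in 1 Control cell and none in DOPAC members, which is a property of that cell.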

How the data were processed

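CD45-positive tumor cells of 1 Control and 1 DOPAC library were measured by droplet single-cell RNA sequencing. The authors deposited unnormalized UMI counts for 32285 genes in each barcode. Per the file headers they come from Cell Ranger 7.0.1, and per the submitters' processing notes the genome was GRCm38. Whether intronic reads were counted or ambient RNA was removed is not given in the sources used here. From these counts, members and the rest of the gate were selected by the rule in the report, and UMIs were summed per library with python 3.11.15, numpy 2.4.6, scipy 1.17.1 and pandas 2.3.3 (figures, matplotlib 3.10.9).

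CPM has an exact Poisson 95% interval, a fold between 2 sums an exact conditional interval, a share a Clopper-Pearson interval and a difference of shares a Newcombe interval. Called ratios had 1 count added to each sum, with at least 20 UMIs. Depth limits the DOPAC values most: there 1 UMI over all members is 2.32 CPM. Shares of cells with a UMI were taken after thinning each cell to 2000 UMIs. Doublets were scored with Scrublet (scanpy 1.11.5); its automatic threshold marked 365 Control cells (4.32%) and failed in DOPAC, where the 815 highest scores (8.07%) were taken. Marked cells stayed in and were left out in an alternative. The scripts were tested on simulated data.

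The members and the 31 gene lists were chosen with earlier results of these data known, and 4 further lists were added after values were seen. Genes were named as the 10 per direction with the most extreme ratios, ranked by the bound of the 95% interval that lies nearest to 0, with at least 100 UMIs, leaving out rule, mitochondrial, ribosomal, haemoglobin, antigen receptor, Xist, Y and unnamed genes, plus the 6 markers, the rule's genes and up to 6 of each list's most abundant genes. Between treatments, genes that differed as far in the same direction outside the gate were left out of the naming. Other genes in the text are list members or were chosen after their values were seen. Alternatives covered depth, the Arg1 threshold, mitochondrial limit, doublets, other cell types, scaling, low counts, the added count and the comparison cells. Some members of the lists are counted but not reported by name here.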

Additional observations from a re-analysis of the deposited data

Results flagged for a closer look

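For 2 genes of the lists, members moved one way between the libraries and all other cells the opposite way; the difference was not tested, since each group is 1 library. Folr2, a folate receptor of resident macrophages, had a log2 ratio of DOPAC over Control of 0.71 in members (52.1 to 83.4 CPM), -1.81 in the rest of the gate and -2.04 in cells outside it. Of its DOPAC member UMIs, 52.8% lay in 1 cell. Mmp8, a collagenase best known from neutrophils, had a log2 ratio of 1.07 in members (50.4 to 104 CPM), -0.71 in the rest of the gate and -1.82 outside it. Its DOPAC member value rests on 45 UMIs in 17 cells, 28.9% of them in 1 cell.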

How the results depend on the processing

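The share of the gate taken by members was lower in DOPAC under all settings run, by -2.93 to -8.22 percentage points. Thinning every cell to 2000 UMIs, where 1 Arg1 UMI meets the threshold, gave a Control share of 18.5% and a difference of -7.74 points. In DOPAC members it gave 961 genes higher and 783 lower. Against the rest of the gate it gave 57 genes higher and 41 lower. Of these calls, 506, 377, 36 and 21 were shared with those in the report. A threshold of 10 Arg1 UMIs per 10000 gave shares of 12.9% and 9.40%. Leaving out cells with RNA of other types gave a Control share of 21.2% and a difference of -8.22 points. A cell was left out for 1 UMI of such a gene, whatever its depth. The setting kept 165 of 296 Control and 74 of 95 DOPAC members. Of gate cells it kept 779 of 1798 in Control and 571 of 766 in DOPAC. A minimum of 50 UMIs left 1283 genes higher in DOPAC members, and a minimum of 1 UMI gave 7742, and 1203 higher against the rest. At that minimum the added count alone makes many genes higher, since 1 count weighs more in the smaller of the sums compared. The counts of 7742 and 1203 are therefore no measure of genes that differ. With 0.5 counts added instead of 1, 1865 genes were higher and 1778 lower in DOPAC members. With the median ratio set to 0, 1706 genes were higher and 1760 lower between treatments, and 128 higher and 78 lower against the rest. Log2 ratios of members over the rest that changed sign were, at 2000 UMIs, Ccl22 (0.19) and Mt3 (1.14) in Control and Cd2 (0.73) and Serpinb2 (-0.32) in DOPAC. Without cells holding other types' RNA, Dct, Mt3 and Pmel (1.89 each) and Ptgds (1.70) did so in Control; the 1.89 comes from the added count alone, since both sums were 0. Mt3, on 1 Control member UMI, also changed against gate cells with 0 Arg1 UMIs (1.20) and, as an alternative chosen after seeing the data, with Control thinned to the DOPAC depth (0.46). Frem3, on 1 cell, changed sign for DOPAC over Control at 2000 UMIs (2.03), at the higher Arg1 threshold (3.23) and without cells holding other types' RNA (2.65), and for members over the rest in Control at that threshold (-4.15). Frem3 had no UMI in DOPAC members, so its positive ratios for DOPAC over Control come from the added count. With so few Mt3 UMIs, the added count also weighs heavily in the Mt3 ratios. For the other changes, the cause was not tested. No paired analysis was possible because each group is 1 library and no test was made.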

Other observations

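Genes of sterol synthesis, a list added after values were seen, were lower in members than in the rest of the macrophage gate. Of 18 measured, 16 were below a ratio of 1 in both libraries and 3 were at least 2-fold lower in both, with median log2 ratios of -0.93 in Control and -0.71 in DOPAC. Fdps, farnesyl diphosphate synthase, measured 41.5 CPM in Control members against 131 in the rest, and 13.9 against 76.7 CPM in DOPAC. Idi1, the isomerase one step before it, measured 15.9 against 41.8 CPM in Control and was at 0 in DOPAC members against 37.0 CPM in the rest. Cyp51, lanosterol demethylase, measured 28.3 against 83.8 CPM and 18.5 against 70.1 CPM.

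Genes of nonclassical, patrolling monocytes, also listed after values were seen, showed the same direction: 9 of 10 measured were below a ratio of 1 in both libraries and 6 at least 2-fold lower, with medians of -1.93 and -1.28. Itgal, the integrin LFA-1 subunit, measured 16.9 against 66.0 CPM in Control and 48.6 against 134 CPM in DOPAC. Ace, the angiotensin-converting enzyme, measured 1.99 against 13.7 CPM and 2.32 against 29.0 CPM, and Treml4 5.46 against 21.5 CPM and 4.63 against 34.0 CPM. The DOPAC member values of Ace and Treml4 lie at or near the floor, where 1 UMI is 2.32 CPM.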
